A study of Homo sapiens with 4 samples.

Results

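RNA interference machinery is described here as a set of 10 genes, taken by symbol from the 23228 gene symbols counted in each of 4 libraries. They are DGCR8, DICER1, TARBP2, the Argonautes EIF2C1, EIF2C2, EIF2C3 and EIF2C4 (now named AGO1 to AGO4), and TNRC6A, TNRC6B and TNRC6C. The libraries came from A673, an Ewing sarcoma cell line grown in DMEM with fetal bovine serum. Cells received a scrambled control siRNA or an siRNA against FAT4 with Lipofectamine RNAiMAX, and were lysed for RNA after 24 h or 48 h. That gave 1 library for each of control 24 h, control 48 h, FAT4 siRNA 24 h and FAT4 siRNA 48 h. All 4 groups had been transfected with an siRNA, so each comparison below is between siRNAs or between times. No culture was repeated, so the p-values carry no separate measure of how cultures vary. They rest on the spread left by a fit additive in siRNA and time. That spread also holds any difference of the siRNA effect between the times. It was pooled over genes, so a gene's own difference between the times carried no weight in its p-value.

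RNA interference silences transcripts through short RNAs held by an Argonaute protein. MicroRNA precursors are cropped in the nucleus by the Microprocessor, in which DGCR8 binds the hairpin and DROSHA cuts it, and are then trimmed in the cytoplasm by DICER1, whose double-stranded RNA-binding partner is TARBP2. The short RNA is loaded into an Argonaute, and a TNRC6 (GW182) protein on the Argonaute recruits the deadenylases that shorten the target's poly(A) tail. Transfected siRNAs enter at the Argonaute step, where EIF2C2 is known as the slicing Argonaute.

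Counts assigned to genes summed to between 15196813 and 22625833 per library, and 3 counts, taken as the floor of detection, were worth 0.134 to 0.203 CPM (counts relative to the TMM-scaled library size). FAT4 itself was at 165 and 149 CPM in control 24 h and 48 h and at 71.8 and 60.2 CPM in FAT4 siRNA 24 h and 48 h, and fell by 1.25 on the log2 scale (edgeR adjusted p = 8.65e-34). Of 9 Ewing sarcoma markers, 8 were above the floor in every library, and their summed level was 3816 to 4555 CPM. The surface marker CD99 was listed at 0 in all 4 libraries. Annotation and counting settings are not given, so this 0 is not read as a lack of the transcript. Of 10 markers of other cell types, KRT8 and KRT18 were above the floor in every library, and the summed level of that list was 158 to 209 CPM. KRT8 fell by 0.52 with FAT4 siRNA (edgeR adjusted p = 0.00232) and KRT18 by 0.37 with time (edgeR adjusted p = 0.000723). Of the 8 Ewing sarcoma markers tested, 2 rose and 3 fell with FAT4 siRNA, where 11.9% and 14.1% of all genes did. Their median log2 fold change was 0.02, and NKX2-2 among them fell by 0.85 (edgeR adjusted p = 2.21e-13). The part of all these markers in the results below was not tested. All 10 genes of the set passed the filter on low counts.

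The comparison of the siRNAs asked which of these transcripts differed between FAT4 siRNA and control siRNA on average over both times. DICER1, its partner TARBP2, the Argonaute EIF2C1 and TNRC6C fell with FAT4 siRNA, and TNRC6A rose. TNRC6C and TARBP2 changed the most, with FAT4 siRNA levels between 0.511 and 0.614 times those of the control at the same time. By the edgeR quasi-likelihood test at a Benjamini-Hochberg adjusted p under 0.05, 4 of the 10 genes fell, where 14.1% of the 13712 genes tested fell. In the same fit 1 of the 10 rose, where 11.9% of all genes rose, and 5 did not pass. The median log2 fold change of the 10 genes was -0.09, beside -0.01 over all genes tested.

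**Figure D1:**
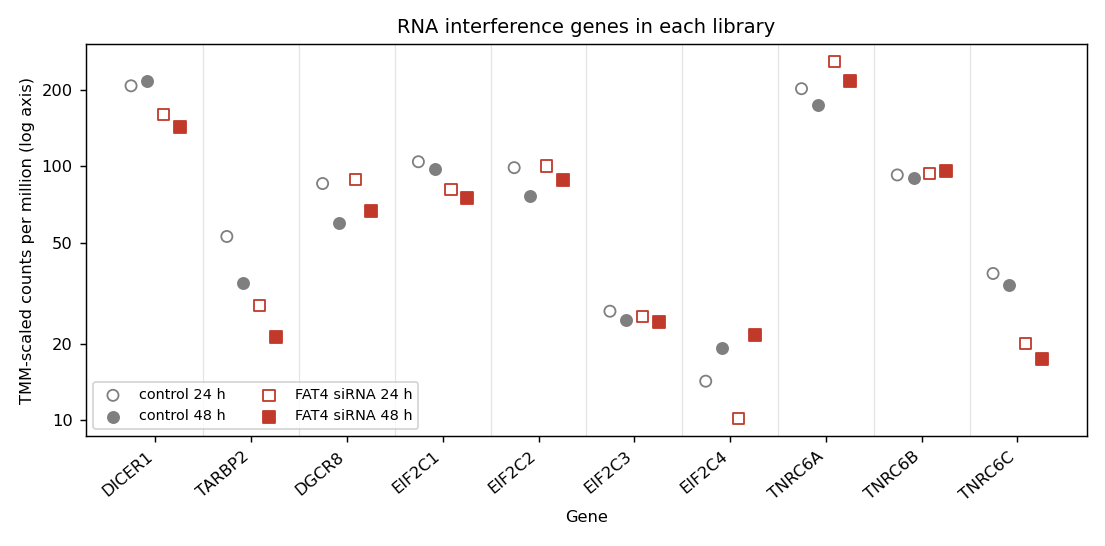
Level of each of the 10 genes in TMM-scaled CPM (log axis) in the 4 libraries, with grey circles for control siRNA, red squares for FAT4 siRNA, open symbols for 24 h and filled symbols for 48 h. Both red squares lie below both grey circles for DICER1, TARBP2, EIF2C1 and TNRC6C and above them for TNRC6A and, by a small margin, TNRC6B, while EIF2C4 is separated by time.

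TNRC6C, the least expressed of the GW182 family per length of transcript, changed the most. TNRC6C was at 37.8 and then 34.2 CPM in the controls (24 h, 48 h) and 20.1 and then 17.5 CPM under FAT4 siRNA. Both FAT4 siRNA libraries lay far below both controls, and the difference between times did not pass (log2 fold change -0.17, edgeR adjusted p = 0.350). FAT4 siRNA over control, the siRNA ratio, was 0.531 at 24 h (exact 95% counting interval 0.464 to 0.607) and 0.511 at 48 h (0.443 to 0.589). In the fit over both times TNRC6C fell by 0.94 on the log2 scale (SE 0.132, edgeR adjusted p = 1.16e-10) and was lower at each time. Of all tested genes 2.97% had a lower siRNA fold change. TMC6, whose span overlaps that of TNRC6C in RefSeq, did not pass (log2 fold change -0.28, edgeR adjusted p = 0.301). TMC6 had 76 to 176 counts per library, with siRNA ratios of 0.684 at 24 h (0.514 to 0.902) and 0.965 at 48 h (0.764 to 1.22). Its part in the TNRC6C count was not tested.

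TARBP2, the cofactor that holds DICER1 to its double-stranded substrate and helps pass the product to an Argonaute, followed. Its level was 52.9 and then 34.8 CPM in the controls (24 h, 48 h) and 28.4 and then 21.4 CPM under FAT4 siRNA. Each siRNA showed a lower level at 48 h than at 24 h, and both FAT4 siRNA libraries stayed below both controls. The siRNA ratio was 0.536 at 24 h (0.478 to 0.599) and 0.614 at 48 h (0.537 to 0.700). TARBP2 fell by 0.81 (SE 0.125, edgeR adjusted p = 6.30e-09). The TARBP2 transcript used here had a GC content higher than that of 79.5% of the tested genes with a matched transcript. With a correction for GC content and length its log2 fold change was -0.66 (adjusted p = 4.16e-05). MAP3K12, whose span overlaps that of TARBP2 in RefSeq (GRCh38.p14), fell by 0.68 (edgeR adjusted p = 1.64e-05), and its part in the TARBP2 count was not tested.

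DICER1, the ribonuclease that cuts precursor hairpins and long double-stranded RNA to size, fell by a smaller amount. DICER1 was at 208 and then 216 CPM in the controls (24 h, 48 h) and 159.7 and then 142 CPM under FAT4 siRNA. The controls differed by less than either differed from a FAT4 siRNA library. The siRNA ratio was 0.769 at 24 h (0.731 to 0.808) and 0.658 at 48 h (0.625 to 0.693), and the ratio at 48 h was 0.856 times that at 24 h (exact 95% counting interval 0.797 to 0.920). Over both times DICER1 fell by 0.49 (SE 0.0922, edgeR adjusted p = 2.74e-06). The DICER1 transcript had 42.6% GC, and its log2 fold change corrected for GC and length was -0.50.

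EIF2C1 and TNRC6A changed least among the genes that passed. EIF2C1, an Argonaute without the slicing activity of EIF2C2, was at 104 and then 97.6 CPM in the controls (24 h, 48 h) and 80.8 and then 75.2 CPM under FAT4 siRNA. Its ratio was 0.775 at 24 h (0.722 to 0.831) and 0.770 at 48 h (0.716 to 0.828), and it fell by 0.37 (SE 0.0983, edgeR adjusted p = 0.00146). DESeq2 did not call EIF2C1 (adjusted p = 0.0505). TNRC6A, the founding GW182 protein of the family, was at 202 and then 174 CPM in the controls (24 h, 48 h) and 258 and then 218 CPM under FAT4 siRNA. Its ratio was 1.28 at 24 h (1.22 to 1.33) and 1.25 at 48 h (1.20 to 1.31), and it rose by 0.34 (SE 0.0908, edgeR adjusted p = 0.00174).

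**Figure D2:**
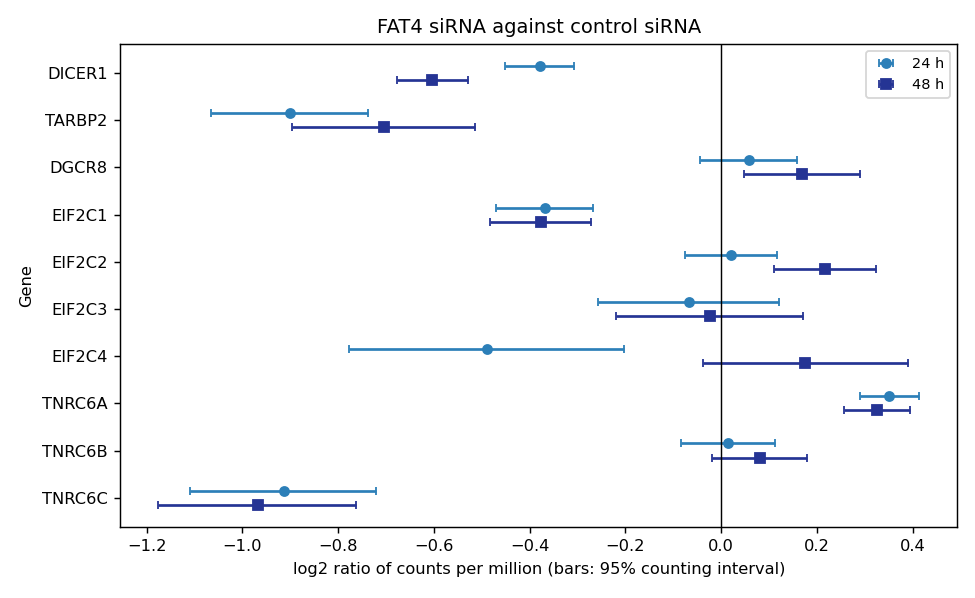
log2 ratio of FAT4 siRNA to control siRNA for each gene at 24 h (light blue circles) and 48 h (dark blue squares), 1 library against 1; bars are exact 95% counting intervals and the vertical line marks no difference. TNRC6C and TARBP2 lie furthest to the left at both times, TNRC6A lies to the right, and EIF2C4 lies on opposite sides of the line at the 2 times.

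The remaining genes of the set did not pass the siRNA test. DGCR8 was at 85.6 and then 59.6 CPM in the controls (24 h, 48 h) and 89.1 and then 67.0 CPM under FAT4 siRNA, with a log2 fold change of 0.11 (edgeR adjusted p = 0.445). EIF2C2 was at 98.8 and then 76.1 CPM in the controls and 100.3 and then 88.4 CPM under FAT4 siRNA, so that the groups overlapped. Its log2 fold change was 0.12 (edgeR adjusted p = 0.400), with siRNA ratios of 1.01 at 24 h (0.949 to 1.08) and 1.16 at 48 h (1.08 to 1.25). With the GC and length correction these log2 fold changes were 0.25 for both genes, and both then passed the test (adjusted p = 0.0348 and 0.0341). EIF2C3 and TNRC6B were the steadiest of the 10. EIF2C3 ranged from 24.3 to 26.9 CPM over the 4 libraries and TNRC6B from 90.4 to 95.5 CPM, and the counting intervals of their siRNA ratios held 1 at both times.

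EIF2C4, an Argonaute without slicing activity, had siRNA ratios on opposite sides of 1. EIF2C4 was at 14.2 and then 19.2 CPM in the controls (24 h, 48 h) and 10.2 and then 21.7 CPM under FAT4 siRNA. The lowest and the highest of its values were thus both in FAT4 siRNA libraries. Its siRNA ratio was 0.713 at 24 h (0.583 to 0.868) and 1.13 at 48 h (0.974 to 1.31), and its log2 fold change over both times was -0.13 (edgeR adjusted p = 0.581). The ratio at 48 h was 1.58 times that at 24 h, with an exact 95% counting interval of 1.23 to 2.04. With 1 library per siRNA and time this difference has no test beyond counting error.

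At single times the same genes stood out. At 24 h, 5 of the 10 genes were at least 1.25-fold lower, where 15.6% of the 10596 genes averaging 5 CPM or more were, and 1 was at least 1.25-fold higher, where 12.6% were. The 5 lower genes were those that fell over both times and EIF2C4. At 48 h, 4 were lower by that measure, where 17.5% of those 10596 genes were, and 1 was higher, where 15.5% were. These counts use the same libraries as the fit and are no separate evidence.

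Within families the totals moved less than the members that passed the test. The reads of the 4 Argonaute genes together were at 244 and then 218 CPM in the controls (24 h, 48 h) and 217 and then 209.6 CPM under FAT4 siRNA. Their siRNA ratio was 0.888 at 24 h (0.850 to 0.928) and 0.963 at 48 h (0.920 to 1.01). EIF2C1 held 42.7% of Argonaute reads in control 24 h (exact interval 41.4 to 44.0) and 44.9% in control 48 h, against 37.2% in FAT4 siRNA 24 h (35.6 to 39.0) and 35.9% in FAT4 siRNA 48 h. The share of EIF2C2 was 40.5% and 35.0% in the controls and 46.2% and 42.2% with FAT4 siRNA, at 24 h and 48 h.

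TNRC6A and TNRC6C went in opposite directions. The reads of all 3 TNRC6 genes together were at 333 and then 298 CPM in the controls (24 h, 48 h) and 372 and then 331 CPM under FAT4 siRNA, so that the siRNA ratio of the sum was 1.12 at 24 h (1.08 to 1.16) and 1.11 at 48 h (1.07 to 1.15). TNRC6C held 11.4% of TNRC6 reads in each control and 5.41% (4.82 to 6.04) and 5.28% (4.68 to 5.92) in FAT4 siRNA 24 h and 48 h. These are shares of reads, not of molecules, since long transcripts give more reads.

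**Figure D3:**
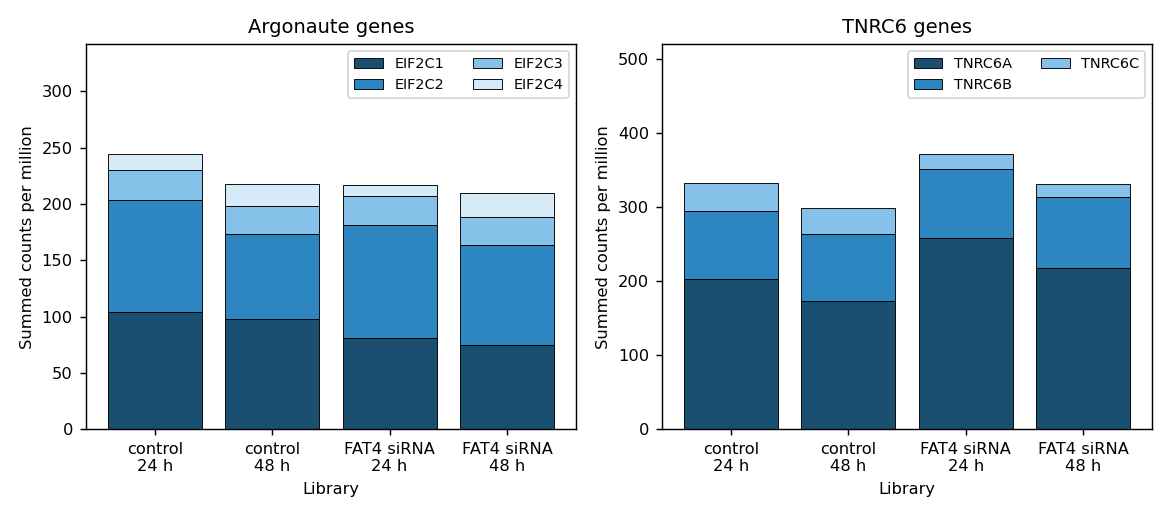
Summed CPM of the 4 Argonaute genes (left) and the 3 TNRC6 genes (right) in each library, stacked by gene from the first member at the bottom, with no error bars. Argonaute sums lie between 209.6 and 244 CPM; the TNRC6C segment at the top of the right panel is thinner in both FAT4 siRNA libraries.

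Per length of transcript the order of the genes depended in part on the transcript taken. TNRC6A was first with either the transcript of median length or the longest annotated one, at a mean over the 4 libraries of 57.6 or 25.3 CPM per kilobase. DICER1 and TARBP2 came next, at 32.3 and 30.4 CPM per kilobase with the median transcript and 17.6 and 18.4 with the longest. Both genes spread over the libraries by more than that gap, so their order was not resolved. EIF2C4 (2.29 CPM per kilobase with either) and TNRC6C (3.25 or 2.81) were low under both choices. EIF2C3, whose annotated 3' UTR is very long, was at 14.7 CPM per kilobase with the median transcript and at 1.29, the lowest of all, with the longest.

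The comparison of times asked what differed between 48 h and 24 h after transfection on average over both siRNAs. EIF2C4 rose, and TARBP2, DGCR8, EIF2C2 and TNRC6A fell. By the edgeR test 4 of the 10 genes fell, where 12.8% of all genes fell, and 1 rose, where 13.8% rose. The median log2 fold change of the 10 was -0.14, beside 0.01 over all genes tested. Measured within each siRNA as at least 1.25-fold, 3 genes were lower and 1 higher in control. Among the 10596 genes averaging 5 CPM or more, 13.4% were lower and 14.2% higher there. With FAT4 siRNA 2 genes were lower and 1 higher, where 14.7% and 16.3% of those 10596 genes were.

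EIF2C4 rose by 0.74 on the log2 scale (SE 0.151, edgeR adjusted p = 2.19e-05) and was higher under each siRNA. Its ratio of 48 h to 24 h was 1.35 in control (1.16 to 1.57) and 2.14 with FAT4 siRNA (1.76 to 2.61). The genes EIF2C4, EIF2C1 and EIF2C3 are neighbours on chromosome 1, and neither EIF2C1 (log2 fold change -0.10) nor EIF2C3 (-0.10) passed the test of time. DGCR8 fell by 0.47 (SE 0.101, edgeR adjusted p = 6.33e-05), with ratios of 0.696 in control (0.647 to 0.748) and 0.752 with FAT4 siRNA (0.693 to 0.816). TARBP2 fell by 0.52 (SE 0.124, edgeR adjusted p = 0.000406), with ratios of 0.657 (0.598 to 0.722) and 0.753 (0.650 to 0.872).

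EIF2C2 fell by 0.28 with time (edgeR adjusted p = 0.0206) and TNRC6A by 0.23 (edgeR adjusted p = 0.0424). Neither was called by DESeq2 (adjusted p = 0.173 and 0.176), nor by edgeR with library totals or upper-quartile scaling. DICER1 did not pass, at a log2 fold change of -0.05, with ratios of 1.04 in control (0.999 to 1.08) and 0.891 with FAT4 siRNA (0.841 to 0.945). Over the 4 libraries the profiles of EIF2C3 and TNRC6B were the closest pair, differing by at most 0.10 on the centred log2 scale. DGCR8 and EIF2C2 followed at 0.12 and DICER1 and EIF2C1 at 0.14. With 4 libraries such likeness is a description.

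**Figure D4:**
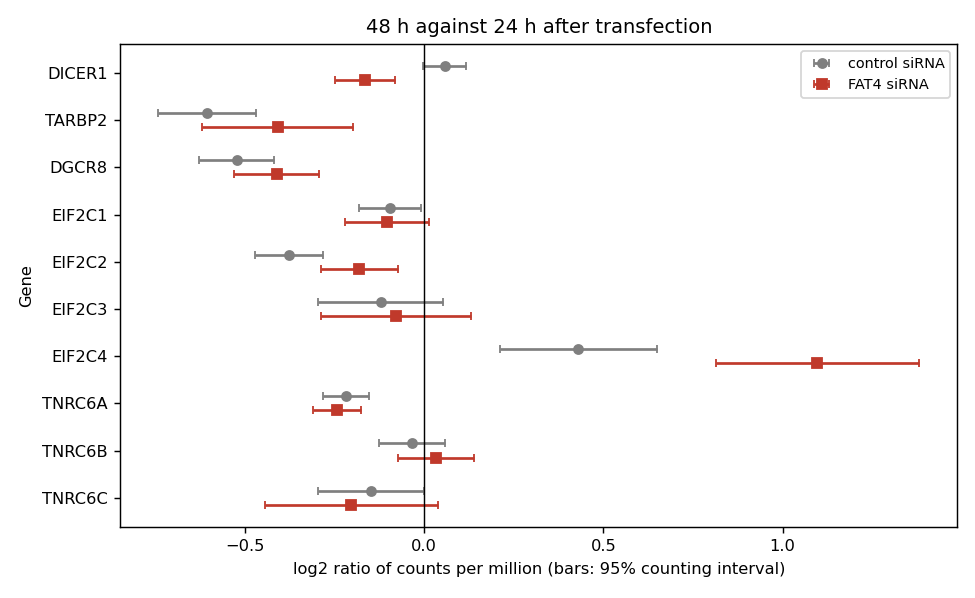
log2 ratio of 48 h to 24 h for each gene in control siRNA (grey circles) and FAT4 siRNA (red squares), 1 library against 1; bars are exact 95% counting intervals and the vertical line marks no difference. EIF2C4 is the only one of the 10 clearly to the right under both siRNAs, and TARBP2 and DGCR8 lie furthest to the left.

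A pair of 7-base words that an earlier reading of these same libraries had singled out was searched in the longest annotated 3' UTR of each gene, on the transcript strand. TTGGACT, found in 10.6% of 18164 annotated 3' UTRs, was carried by genes with a median log2 siRNA ratio of -0.04 at 24 h and -0.06 at 48 h, against -0.01 and 0.01 in genes without it. AGCCTTA, found in 9.95%, was carried by genes with medians of 0.11 and 0.07, against -0.03 and -0.004 in genes without it. These medians are therefore no independent support. The 10.6%, the 9.95% and the medians make no allowance for the length of a 3' UTR. The sites below are examples from members that held one, 5′ to 3′ on the transcript strand in GENCODE release 29, with the word in capitals. EIF2C2 also held 1 AGCCTTA and EIF2C3 1 TTGGACT, which are not shown.
EIF2C4: ttttattaaatTTGGACTggatgtatgtc
EIF2C3: gcaaagaatacAGCCTTAatttcagaagg
EIF2C1: gattttttaggAGCCTTAatcagaaaagg

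Among the genes that passed the siRNA test, only EIF2C1 held either word in that window. The longest annotated 3' UTRs of DICER1 (4270 bases), TARBP2 (450), TNRC6C (3990) and TNRC6A (2420) contained neither TTGGACT nor AGCCTTA. Those of the members with a word were longer, at 10921 bases in EIF2C1, 11888 in EIF2C2, 16755 in EIF2C3 and 4285 in EIF2C4. EIF2C1, whose 3' UTR held an AGCCTTA, fell, and EIF2C4, with a TTGGACT, had a ratio under 1 at 24 h and over 1 at 48 h. EIF2C3 held both words and did not pass the siRNA test (log2 fold change -0.05). Whether either word bears on these genes was not tested.

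The same tests were read for partners of these proteins, from lists written from general knowledge. Earlier results of these same libraries were known when the lists were chosen, so their counts are no independent support. DROSHA, the cutting subunit of the Microprocessor, was at 124 and then 99.6 CPM in the controls (24 h, 48 h) and 143 and then 109 CPM under FAT4 siRNA. Its log2 fold change between siRNAs was 0.17 (edgeR adjusted p = 0.180), and with time it fell by 0.35 (edgeR adjusted p = 0.00215), as its partner DGCR8 did. XPO5, which exports precursor hairpins from the nucleus, had siRNA and time log2 fold changes of 0.03 and -0.19 and passed neither test. PRKRA, the paralogue of TARBP2 that also binds DICER1, was at 0.24 (edgeR adjusted p = 0.0662) and -0.20 (edgeR adjusted p = 0.136).

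Of 16 Microprocessor cofactors tested, 2 rose and 2 fell with FAT4 siRNA, near the 11.9% and 14.1% of all genes, with a median log2 fold change of -0.01. With time 0 rose and 9 fell, where 13.8% and 12.8% of all genes did, with a median of -0.24. SRRT, a cap-binding complex partner needed for primary microRNA processing, fell by 0.51 with time and SAFB2 by 0.39. With FAT4 siRNA the cap-binding subunit NCBP2 rose by 0.30 and the helicase DDX5 by 0.29, whereas NCBP1 fell by 0.35. DESeq2 did not call NCBP2 (adjusted p = 0.0675) or NCBP1 (0.0760), and DDX5 did not pass with the GC and length correction (adjusted p = 0.0511). Among 5 export and dicing partners, the RNA editing enzyme ADAR fell by 0.25 with FAT4 siRNA and the helicase DHX9 fell by 0.43 with time. The ADAR call was lost with DESeq2 (adjusted p = 0.130) and with the GC and length correction (0.141).

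Of 13 chaperones and nucleases that act when an Argonaute is loaded, 7 rose with FAT4 siRNA (11.9% of all genes rose) and 0 fell, with a list median of 0.25. With time 0 rose and 7 fell (12.8% of all genes fell), with a median of -0.23. TSN and TSNAX, the subunits of the C3PO nuclease that removes the passenger strand, rose by 0.55 (edgeR adjusted p = 2.71e-07) and 0.40. HSPA8, the constitutive HSC70, and the kinase co-chaperone CDC37 fell by 0.54 and 0.37 with time. HSPA8 was at 4417 and then 2653 CPM in the controls (24 h, 48 h) and 4766 and then 3737 CPM under FAT4 siRNA. Its siRNA ratio was 1.08 at 24 h and 1.41 at 48 h, and that of HSP90AB1 was 1.08 and 1.33. TSN differed, at 1.51 and 1.41. Control 48 h entered both counts of this list, so they are no separate evidence. The GW182 effectors, 30 genes of deadenylation and decapping, gave 4 higher and 3 lower between siRNAs and 4 higher and 5 lower with time, shares near those of all genes (11.9% and 14.1%, then 13.8% and 12.8%). The decapping genes DCP1A and DCP2 rose by 0.61 and 0.56 with FAT4 siRNA. LSM14B, a P-body protein, fell by 0.92 (edgeR adjusted p = 2.59e-16), and the exonuclease XRN1 fell by 0.48. With time PAN2 rose by 0.60 and CNOT6L by 0.56, both deadenylases, and PABPC4 fell by 0.52 and PATL1 by 0.37. DESeq2 did not call CNOT6L (adjusted p = 0.154).

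Smaller lists held single changes. Of all genes 11.9% rose and 14.1% fell with FAT4 siRNA, and 13.8% rose and 12.8% fell with time. Lists of this size are too small to place their shares against these. Of 11 Argonaute partners, the LIM-domain protein WTIP rose by 0.82 with FAT4 siRNA and fell by 1.08 with time, and no other member passed. WTIP had 50 to 143 counts per library, and DESeq2 did not call its siRNA change (adjusted p = 0.112). Of 11 genes of small RNA tailing and decay tested, the let-7 inhibitor LIN28B rose by 0.82 with FAT4 siRNA and PNPT1 fell by 0.34 with time, the latter not called by DESeq2 (adjusted p = 0.0865). Of the PIWI genes, the germline relatives of the Argonautes, PIWIL1, PIWIL2 and PIWIL3 had 0 to 4 counts per library. PIWIL4 was tested, and rose by 0.63 with time (edgeR adjusted p = 0.0466), with 104 counts in FAT4 siRNA 48 h and 45 to 67 in the other libraries. DESeq2 did not call PIWIL4 (adjusted p = 0.454).

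**Figure D5:**
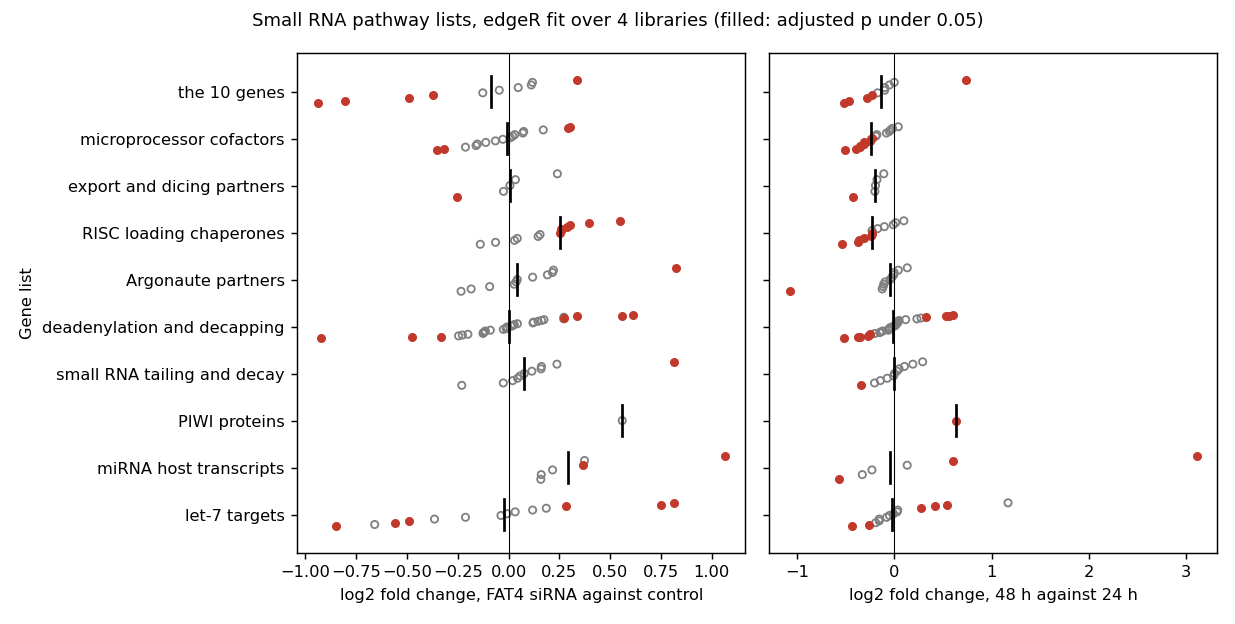
log2 fold change in the edgeR fit over 4 libraries for the 10 genes and 9 small RNA pathway lists, FAT4 siRNA against control (left) and 48 h against 24 h (right). Points are genes, filled red where the adjusted p was under 0.05, and black ticks are list medians; the loading chaperones lie to the right of 0 for siRNA (median 0.25) and to the left for time (median -0.23).

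Among 6 tested host transcripts of microRNAs, which are substrates of the Microprocessor, 2 rose with FAT4 siRNA and 0 fell, where 11.9% and 14.1% of all genes did. With time 2 rose and 1 fell, where 13.8% and 12.8% did. MIR17HG, the host of the miR-17-92 cluster, was at 10.3 and then 7.31 CPM in the controls (24 h, 48 h) and 22.5 and then 14.5 CPM under FAT4 siRNA. It rose by 1.07 with FAT4 siRNA (SE 0.161, edgeR adjusted p = 2.69e-09) and fell by 0.56 with time, the latter not called by DESeq2 (adjusted p = 0.140). MIR210HG, the host of miR-210, had 18 and then 95 counts in the controls (24 h, 48 h) and 7 and then 116 counts under FAT4 siRNA, and rose by 3.11 with time (SE 0.325, edgeR adjusted p = 2.37e-19). MIR100HG was at 19.1 and then 33.5 CPM in the controls (24 h, 48 h) and 28.7 and then 37.5 CPM under FAT4 siRNA, a wider gap between siRNAs at 24 h. It rose by 0.37 with FAT4 siRNA and by 0.60 with time. DESeq2 did not call its siRNA change (adjusted p = 0.197). Mature microRNAs were not measured by these libraries. The sequences that the 2 most changed hosts encode are given below from RefSeq (GRCh38.p14), 5′ to 3′, with the seed, bases 2 to 8, in capitals. miR-17-5p shares its seed with miR-20a-5p, and miR-19a-3p with miR-19b-3p.
hsa-miR-17-5p: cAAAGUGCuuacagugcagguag
hsa-miR-20a-5p: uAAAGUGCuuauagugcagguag
hsa-miR-19a-3p: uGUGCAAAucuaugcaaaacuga
hsa-miR-19b-3p: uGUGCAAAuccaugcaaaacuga
hsa-miR-18a-5p: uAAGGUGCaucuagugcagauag
hsa-miR-92a-3p: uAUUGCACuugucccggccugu
hsa-miR-210-3p: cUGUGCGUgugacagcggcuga

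The fit over both times rested on 1 residual degree of freedom. With a biological coefficient of variation of 0.15 set for all genes in place of the fitted spread, 2 of the 5 siRNA calls held, TNRC6C (adjusted p = 0.00325) and TARBP2 (0.0154), and 1 of the 5 time calls, EIF2C4 (0.0284). DICER1 then had adjusted p = 0.207. Without the time term edgeR called 0 of the 10 genes between siRNAs and 0 of all genes, with 4 of the 10 and 1706 of all genes at an unadjusted p under 0.05. With the time term kept, DESeq2 called 4 of the 10. In these bulk libraries fewer cells expressing a gene and less RNA per cell cannot be told apart.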

How the data were processed

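Poly(A)-selected strand-specific RNA-seq libraries (TruSeq stranded mRNA) were made from TRIzol RNA, per the labels' protocols. The authors deposited raw read counts for each gene symbol, 1 library per file. Tools named without settings in the submitters' processing notes are HTSeq, SAMtools, TopHat2 and CASAVA 1.8.2, with build hg19. For annotation, counting mode and strand no setting was given in the sources used here, so counts of overlapping genes are uncertain. Entries that name no gene stayed out: reads outside genes were 19.5% to 20.5% of assignable reads and reads on several genes 0.772% to 0.804%.

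Libraries were scaled by TMM (factors 0.9727 to 1.026) in edgeR 4.0.16 under R 4.3.3. Genes kept by filterByExpr (minimum count 10, total 15), 13712, entered a two-sided quasi-likelihood test on the 4 libraries, additive in siRNA and time, adjusted over all genes at 0.05. The common biological coefficient of variation was 0.0737. The spread used in the test was pooled over genes, with no weight on a gene's own residual. SEs were the fold change divided by the root of the F statistic. Ratios at 1 time had nothing added and exact Clopper-Pearson 95% intervals, or exact conditional ones for a ratio of ratios, which cover counting error only. The fit was tested on simulated data.

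Transcript length, GC content and 3' UTRs came from GENCODE release 29, which is not on hg19, and coordinates are left out; 95.3% of tested genes matched. Offsets for the GC and length correction were fitted in each library as natural splines (5 degrees of freedom for GC, 4 for length). Alternatives, 10 for each test, changed the scaling, the filter, the test (DESeq2 1.42.0), the dispersion, the covariate or this correction. Named were all 10 genes, FAT4, DROSHA, XPO5 and PRKRA, and per list and comparison up to 2 higher and 2 lower genes with the largest change among those passing with 1 sign in both pairs of libraries. The members, the lists and the words were chosen with earlier results of these data known. MAP3K12, TMC6, CD99, HSP90AB1, the 3 markers given with a test and the microRNAs shown were chosen after values were seen. A gene of a list and a site in a 3' UTR are not reported here.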

Additional observations from a re-analysis of the deposited data

Results flagged for a closer look

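The siRNA ratio of EIF2C4 moved in opposite directions at the 2 times, 0.713 at 24 h and 1.13 at 48 h, and the latter was 1.58 times the former. Each time had 1 library per siRNA, and the difference was not tested beyond counting error. The counts behind it were 318 and 150 at 24 h and 386 and 339 at 48 h, for control and FAT4 siRNA.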

How the results depend on the processing

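The fits call 5 of the 10 genes between siRNAs and 5 between times. Between siRNAs the count was 2 with the coefficient of variation set to 0.15 and 0 without the time term. Between times it was 3 with library totals, upper-quartile scaling or DESeq2, 1 with the set coefficient and 0 without the siRNA term. Of 105 other pathway genes tested, 27 were called between siRNAs, where 25.9% of all genes were. It was 14 by DESeq2, 6 with the set coefficient and 0 without the time term, where 9.07%, 4.51% and 0% of all genes were. Between times 37 of the 105 were called, where 26.6% of all genes were. By DESeq2, with the set coefficient and without the siRNA term it was 17, 2 and 1, where 8.58%, 6.32% and 0.365% were. Of the 13712 genes tested, 3555 were called between siRNAs, with 1244 by DESeq2 and 619 with the set coefficient. Between times 3646 were called, with 1176, 867 and 50 without the siRNA term. Sign changes with time came from DICER1, at 0.00702 with library totals and 0.00122 with upper-quartile scaling, and TNRC6B, at 0.0567, 0.0509 and, among genes of at least 5 CPM, 0.0109; neither passed the test of time in any of the 10 alternatives. DGCR8 and EIF2C2 gained an siRNA call with the GC and length correction. The levels per length moved with the transcript taken for 9 genes. The additive fit compared the siRNAs within each time and the times within each siRNA. No further pairing was possible because each siRNA and time has 1 library and the labels number no replicates. Leaving out a library leaves no residual in the fit. A ratio near 1 in EIF2C4 or TNRC6C, with 150 to 845 counts, is limited by depth.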

Other observations

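Known targets of let-7, a microRNA family that DICER1 and the Argonautes serve, were split between directions. Of 14 tested, 3 rose and 3 fell with FAT4 siRNA, with a median log2 fold change of -0.02, and 3 rose and 2 fell with time, with a median of -0.03. Of all genes, 11.9% rose and 14.1% fell with FAT4 siRNA and 13.8% rose and 12.8% fell with time. A list of 14 genes is too small to place its shares against these. LIN28B rose by 0.82 and the RNA-binding protein IGF2BP3 by 0.75 (edgeR adjusted p = 8.69e-13) with FAT4 siRNA. The chromatin protein HMGA2 fell by 0.85 (edgeR adjusted p = 2.91e-17), at 214 and then 211 CPM in the controls (24 h, 48 h) and 131 and then 106 CPM under FAT4 siRNA, and IGF2BP1 fell by 0.56. DICER1 is itself in this list and is one of the 3 that fell. With time ARID3A and ARID3B rose by 0.54 and 0.42, and the phosphatase CDC25A and IGF2BP1 fell by 0.44 and 0.26. Of these, DESeq2 did not call ARID3A (adjusted p = 0.267), ARID3B (0.390) or IGF2BP1 (0.111).

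The word CTACCTC, which pairs with the let-7 seed, was present in 10.0% of annotated 3' UTRs and in those of TARBP2, EIF2C1, EIF2C2 and EIF2C3 among the 10 genes. In that order these 3' UTRs were 450, 10921, 11888 and 16755 bases long. A longer 3' UTR has more places for a word, and the 10.0% makes no allowance for length. The let-7a sequence and the TARBP2 site are shown with the seed and its match in capitals. Genes with the word had a median log2 siRNA ratio of 0.01 at both times, against -0.02 and 0.01 without it.
hsa-let-7a-5p: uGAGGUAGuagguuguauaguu
TARBP2: gggtgccatctCTACCTCtgacacagact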
